A study of Homo sapiens with 8 samples.

Results

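RCN2, HIPK3, CHUK, AHNAK2, GSKIP, POLE3, BZW1 and RNF11 are 8 genes that had large falls in T47D cells after siRNA against 17β-HSD1. Their signal did not pass the test for a response to estradiol. They were grouped as outside the cell cycle, although POLE3 encodes a subunit of a DNA polymerase. These 8 genes were taken from 18417 genes measured, each through the probe set that carries only its symbol and has the highest mean over the arrays, and each of the 8 had 1 such probe set. They were chosen on these same arrays for their fall with the siRNA and for not passing the test for estradiol, so their values in those comparisons are given as descriptions with no test.

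T47D is an established luminal, estrogen receptor-positive breast cancer line. Each RNA went on a whole-transcript Affymetrix array (Human Gene 1.0 ST), 8 in all, with 2 in each of 4 groups: 17β-HSD1 siRNA with estradiol (E2), 17β-HSD1 siRNA with ethanol vehicle, control siRNA with E2, and control siRNA with vehicle. All cells were first held in steroid-deprived, charcoal-treated medium and were reverse-transfected with 200 nM siRNA, either a mixture of 3 siRNAs to 17β-HSD1 or a scrambled control. After 48 h the medium was renewed with 1 nM E2 or with ethanol, and RNA was taken 2 days later. The treatment protocol states that the replicates came from 2 cell culture experiments, but not that a replicate number stands for the same experiment in every group. The study used 1 cell line and 1 siRNA mixture, so the single siRNAs of the mixture cannot be told apart, and neither can fewer cells of a kind and less RNA per cell.

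The target, HSD17B1, encodes the enzyme that reduces estrone to the more active estradiol. The 8 genes have varied roles. RCN2 encodes a calcium-binding protein of the secretory pathway, and HIPK3 and CHUK encode protein kinases, CHUK being the α subunit of the IκB kinase that activates NF-κB. AHNAK2 encodes a very large scaffold-type protein, GSKIP a small protein that holds glycogen synthase kinase 3 and protein kinase A together, and POLE3 a histone-fold subunit of DNA polymerase ε. BZW1 encodes a regulator of the choice of translation start site that resembles part of the initiation factor eIF5, and RNF11 a RING-finger protein that works with ubiquitin ligases and with the A20 complex that restrains NF-κB. siRNAs are also known, in general, to lower transcripts other than the intended one through partial matches. No source used here gives the siRNA sequences, so matches between them and the transcripts of the 8 genes were not tested.

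The 8 genes lie on 7 chromosomes, and they moved together, which follows from their choice for the same fall. For 3 of them the sequences just before the annotated start are shown. These sequences are the 250 bases before the start in RefSeq (GRCh38.p14), and no source used here names a build for the array table. RCN2 lies on chr15:76931499-76931748, plus strand, and capitals mark the CCAAT motif in either direction. For CHUK (chr10:100229597-100229846, minus strand) and GSKIP (chr14:96363276-96363525, plus strand) capitals mark TGACG in either direction, the core letters of sites for factors of the CREB and ATF family.
RCN2: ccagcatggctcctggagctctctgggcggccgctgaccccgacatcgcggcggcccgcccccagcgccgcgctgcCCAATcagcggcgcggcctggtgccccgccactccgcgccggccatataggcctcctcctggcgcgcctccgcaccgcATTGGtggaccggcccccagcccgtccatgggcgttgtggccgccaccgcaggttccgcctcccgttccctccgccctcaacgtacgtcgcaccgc
CHUK: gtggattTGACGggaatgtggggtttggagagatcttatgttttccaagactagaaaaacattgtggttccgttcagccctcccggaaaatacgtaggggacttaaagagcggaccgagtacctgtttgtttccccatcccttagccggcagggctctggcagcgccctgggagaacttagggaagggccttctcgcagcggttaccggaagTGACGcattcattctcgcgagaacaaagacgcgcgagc
GSKIP: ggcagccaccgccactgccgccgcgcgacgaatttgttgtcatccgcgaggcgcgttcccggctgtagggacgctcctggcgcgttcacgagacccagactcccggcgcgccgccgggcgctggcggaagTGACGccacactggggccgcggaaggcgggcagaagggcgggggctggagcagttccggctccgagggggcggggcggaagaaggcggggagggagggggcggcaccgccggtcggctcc

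These motifs of common promoter elements were searched on both strands in the same window of 13820 protein-coding genes. CCAAT was found before 3 of the 8 genes (RCN2, AHNAK2 and RNF11) and before 35.2% of all genes. GGGCGG was found before RCN2, AHNAK2, GSKIP, BZW1 and RNF11, which is 5 of 8, against 56.0% of all. TGACG was found before CHUK, GSKIP and RNF11, against 26.1% of all, and no overlap between motifs was removed. TATAAA was found before HIPK3 and before 9.63% of all genes. The estrogen response element (GGTCA and TGACC, 3 bases apart) and a pair of GAAA runs 2 bases apart, of the kind found in interferon-stimulated promoters, were in 0 of the 8 windows and in 0.0289% and 2.68% of all. Thus no motif searched was found before all 8 genes, and a match in these letters is not a bound site.

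One array stood apart from the rest. 17β-HSD1 siRNA, vehicle replicate 1 had a mean correlation with the other arrays of 0.973, against 0.981 to 0.988 for the others. The targeted gene was measured at a signal, here and below on the log2 scale, of 8.32 and 8.37 with 17β-HSD1 siRNA in E2 and 8.41 and 8.36 with 17β-HSD1 siRNA in vehicle, against 9.12 and 8.56 with control siRNA in E2 and 9.35 and 8.66 with control siRNA in vehicle (replicates 1 and 2 in each pair). The 4 knockdown arrays were nearly equal and all lay below the 4 control arrays, which differed between the replicates. The averaged change was -0.56 ± 0.16 (SE, 4 arrays against 4), which did not pass the threshold (limma adjusted p = 0.221). RefSeq lists a pseudogene, HSD17B1P1, and whether the probe set of HSD17B1 also reads it was not tested. Of the luminal epithelial markers 11 of 11 were measured and 0 changed by limma, and their mean signal was 10.82 to 10.92 with 17β-HSD1 siRNA, against 10.91 to 11.22 with control siRNA. For basal markers these ranges were 7.46 to 7.74 and 7.32 to 7.47 (4 of 6 measured), for fibroblast markers 6.81 to 7.03 and 6.77 to 6.92 (6 of 6), for immune markers 5.54 to 5.96 and 5.54 to 5.59 (4 of 5), and for endothelial markers 6.04 to 6.43 and 6.20 to 6.33 (4 of 4), with 0 genes changed in each. The part of these markers in the falls was not tested.

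RCN2 had the largest fall of all 18417 genes. Its signal was 9.11 and 9.28 with 17β-HSD1 siRNA in E2 and 8.40 and 9.37 with 17β-HSD1 siRNA in vehicle, against 10.44 and 10.35 with control siRNA in E2 and 10.80 and 10.39 with control siRNA in vehicle. The 4 knockdown arrays lay at least 0.98 below the 4 control arrays, with the lowest value in vehicle replicate 1, the array that stood apart. The averaged change was -1.45 ± 0.19, or 0.366-fold, and without that array it was -1.21.

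HIPK3, a homeodomain-interacting kinase, had 8.94 and 9.14 with 17β-HSD1 siRNA in E2 and 8.83 and 9.24 in vehicle, against 10.27 and 9.99 with control siRNA in E2 and 10.45 and 10.01 in vehicle. CHUK stood at 8.41 and 8.64 with 17β-HSD1 siRNA in E2 and 8.30 and 8.66 in vehicle, against 9.60 and 9.60 with control siRNA in E2 and 9.73 and 9.29 in vehicle. In both kinase genes the knockdown arrays were apart from the controls by 0.63 or more, and replicate 1 was the lower of the knockdown pair in each medium. The averaged change was -1.14 ± 0.14 for HIPK3, 0.453-fold. It was -1.05 ± 0.13 for CHUK, 0.483-fold.

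AHNAK2 had 7.12 and 7.18 with 17β-HSD1 siRNA in E2 and 6.56 and 7.16 in vehicle, against 8.25 and 8.31 with control siRNA in E2 and 7.81 and 7.83 in vehicle. GSKIP had 7.27 and 7.36 with 17β-HSD1 siRNA in E2 and 6.91 and 7.83 in vehicle, against 8.33 and 8.11 with control siRNA in E2 and 8.84 and 8.24 in vehicle. AHNAK2 replicates were close in 3 of the 4 groups, whereas GSKIP differed by 0.92 between the knockdown arrays in vehicle and by 0.59 between the control arrays there. Its knockdown and control arrays were apart by 0.27, the narrowest gap of the 8 genes. AHNAK2 changed by -1.05 ± 0.13 (0.485-fold) and GSKIP by -1.04 ± 0.19 (0.487-fold) on average.

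POLE3 had 8.48 and 8.33 with 17β-HSD1 siRNA in E2 and 8.04 and 8.23 in vehicle, against 9.54 and 9.40 with control siRNA in E2 and 9.05 and 8.82 in vehicle. The knockdown arrays lay below the controls in each medium, and the E2 arrays lay above the vehicle arrays with each siRNA. The averaged knockdown change was -0.93 ± 0.11, 0.523-fold.

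BZW1 had 9.39 and 9.60 with 17β-HSD1 siRNA in E2 and 8.87 and 9.55 in vehicle, against 10.27 and 10.32 with control siRNA in E2 and 10.43 and 10.07 in vehicle. RNF11 had 7.61 and 7.62 with 17β-HSD1 siRNA in E2 and 7.64 and 7.92 in vehicle, against 8.41 and 8.57 with control siRNA in E2 and 8.75 and 8.59 in vehicle. Both were apart between the siRNAs, by 0.47 for BZW1 and 0.49 for RNF11. The averaged change was -0.92 ± 0.15 (0.529-fold) for BZW1 and -0.88 ± 0.11 (0.542-fold) for RNF11. RefSeq lists the pseudogenes BZW1P1 and BZW1P2, and RNF11P1 and RNF11P2, and whether the probe sets read their transcripts too was not tested.

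**Figure D1:**
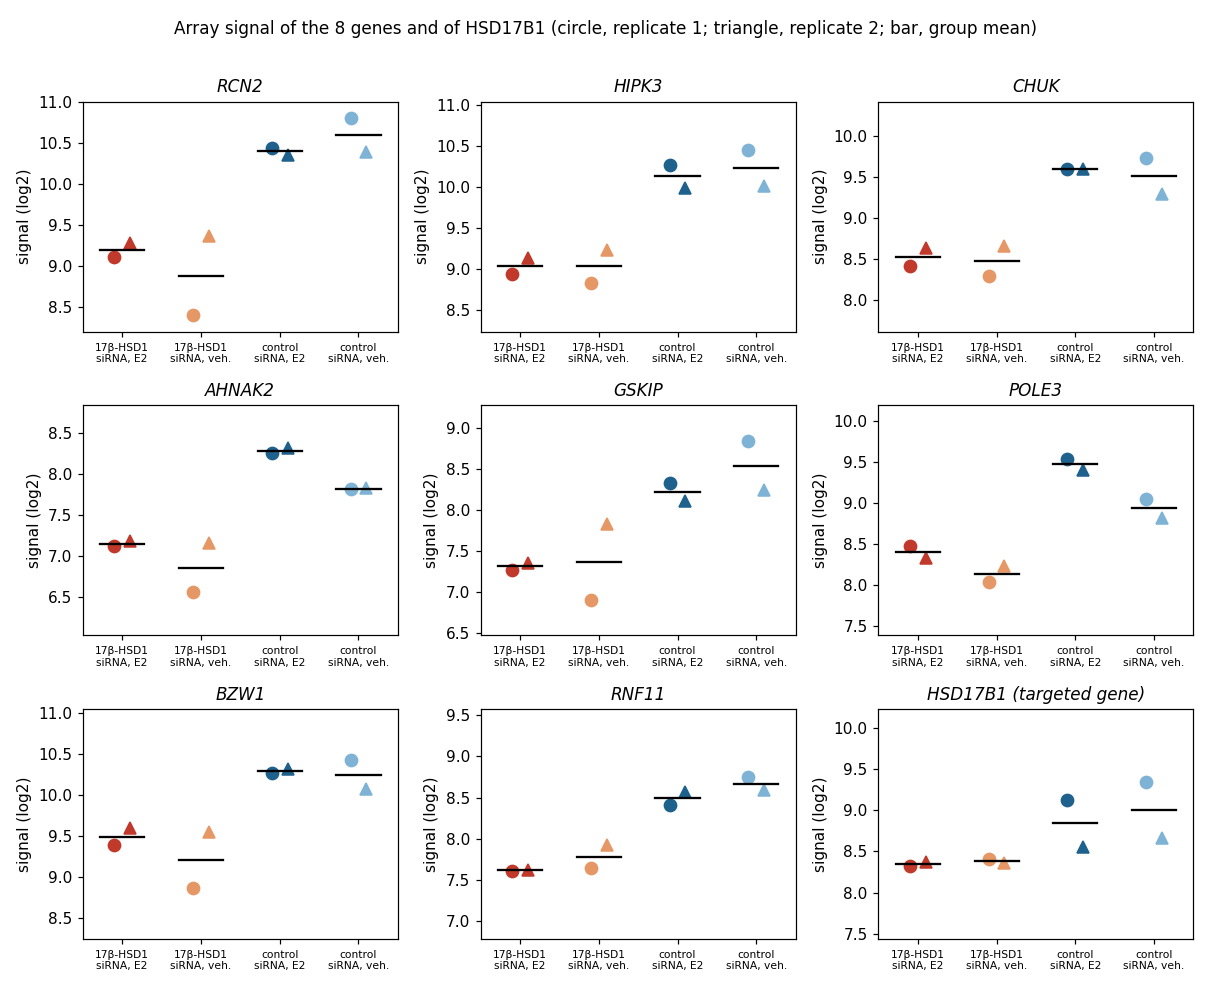
Signal on the log2 scale of the 8 genes and of HSD17B1 on each array, by group (circles, replicate 1; triangles, replicate 2; bars, mean of 2 arrays); each panel spans the same number of log2 units. In all 9 panels the 4 knockdown arrays lie below the 4 control arrays, and HSD17B1 has the spread in the control arrays rather than in the knockdown arrays.

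All 8 genes were past an adjusted p of 0.05 in the averaged knockdown by limma over 21214 probe sets, which was part of how they were chosen, and in this fit 0.239% of all genes were called lower. All 8 had knockdown arrays wholly below the control arrays, as had 2.17% of all genes. Called falls numbered 44, of which 27 were also called with E2 and 17 were not. Among called falls, TP53I3 (-0.92 ± 0.15) fell slightly more than RNF11, while ESCO2 (-0.84 ± 0.13), PBK (-0.84 ± 0.13) and NUF2 (-0.81 ± 0.11) fell slightly less. Those 4 are not among the 8, and E2 raised them by 0.80 ± 0.15, 0.68 ± 0.13, 1.36 ± 0.13 and 1.14 ± 0.11 on average (limma adjusted p of 0.0209, 0.0239, 0.000918 and 0.000918). The next called fall that E2 did not change by the test was TUBA1A (-0.78 ± 0.11), a tubulin gene, named after its value was seen. The near-identical histone H3.3-type genes H3-3B (-1.22 ± 0.21) and H3-5 (-1.16 ± 0.20) fell more than HIPK3, did not pass the test for E2 either, and are not among the 8, so the 8 are a selection and not all such genes; whether their probe sets read each other's transcripts was not tested.

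In each medium taken alone the direction was the same for every one of the 8 genes. This had to be so, since their knockdown arrays lay wholly below their control arrays, and it is no separate support. In E2 their changes ran from -1.20 ± 0.26 (RCN2) to -0.80 ± 0.22 (BZW1), with a median of -1.07. In vehicle they ran from -1.71 ± 0.26 (RCN2) to -0.80 ± 0.16 (POLE3), with a median of -1.04, against medians over all genes of 0.00 and 0.02. No probe set passed the threshold in a single medium by limma (0% called in each, with 977 and 1157 probe sets at an unadjusted p below 0.05). The knockdown change in E2 minus that in vehicle was 0.51 ± 0.37 for RCN2 and lay between -0.26 and 0.26 for the other 7, where POLE3 had -0.26 ± 0.22. By value, 5 of the 8 genes fell by more in vehicle with all arrays. Without the array that stood apart 1 of the 8 (RCN2) did and the other 7 fell by more in E2, so no order of the media held.

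Part of the size in vehicle came from the array that stood apart and, for 7 of the 8 genes, part from control siRNA, vehicle replicate 1. The median of the 8 averaged changes, -1.04 with all arrays, was -0.892 without the former array and -0.915 without the latter. In 17β-HSD1 siRNA, vehicle the signal of replicate 1 was below that of replicate 2 for 8 of the 8 genes, by a median of 0.50, whereas 42.9% of all genes were lower in replicate 1, and the median gap over all genes was 0.08 upwards. Without the array that stood apart the change in vehicle was -1.22 ± 0.19 for RCN2, -0.71 ± 0.23 for GSKIP, -0.70 ± 0.18 for BZW1 and -0.66 ± 0.13 for AHNAK2. The lone array left was assumed to vary like the other groups. In control siRNA, vehicle the order was turned, with replicate 1 above replicate 2 for 7 of the 8 genes, by a median of 0.38 over the 8. Over all genes there, 55.5% were lower in replicate 1, with a median gap of -0.03. Taken by replicate number, the difference between the siRNAs in vehicle was therefore wider for replicate 1 than for replicate 2 in each of the 8 genes. For GSKIP it was -1.92 with replicate 1 and -0.41 with replicate 2, and for RCN2 -2.40 and -1.01. With 17β-HSD1 siRNA in E2, replicate 1 was the lower for 7 of the 8 genes (median gap -0.13) and for 39.4% of all genes. With control siRNA in E2, replicate 1 was the lower for 3 of the 8 genes and for 48.6% of all genes.

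E2 itself had small differences in most of the 8 genes, none past the threshold, which was part of the choice (1.64% of all genes were called with E2 in either direction and 1.4% were called higher). The averaged E2 difference was between -0.19 and 0.16 for 6 of them, with SE of 0.11 to 0.19. POLE3 differed by 0.40 ± 0.11 and AHNAK2 by 0.37 ± 0.13. In the control siRNA arrays alone, 2 against 2, POLE3 differed by 0.53 ± 0.16 and AHNAK2 by 0.46 ± 0.19. For both, the E2 arrays lay wholly above the vehicle arrays there, but the share of all genes with such a gap was not counted. These genes were singled out from the 8 after their E2 values were seen. The absence of a call therefore does not show that POLE3 and AHNAK2 were unaffected by E2.

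Set against HSD17B1, the falls were large, but the 8 genes were chosen for large falls on these same arrays. The log2 change of RCN2 was 2.61 times that of HSD17B1, and that of RNF11, the smallest of the 8, was 1.59 times. Over all genes, HSD17B1 ranked 153rd in size of fall, and 152 genes (0.825%) fell by more. Of those, 54 had knockdown arrays wholly below the control arrays, as had 2.17% of all genes. A larger fall by itself makes such a gap more likely. A fold on an array can be compressed by background, and the amount was not measured for any of these probe sets.

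The same comparison was made within each medium, setting arrays of the same replicate number against each other. In E2, replicate 1, the 8 genes differed by -0.80 (RNF11) to -1.33 (HIPK3) and HSD17B1 by -0.80. In E2, replicate 2, they differed by -0.72 (BZW1) to -1.13 (AHNAK2) and HSD17B1 by -0.19. HSD17B1 was thus nearly level between the siRNAs in that pair, while the 8 genes were not. In vehicle, replicate 1, the 8 genes differed by -1.01 (POLE3) to -2.40 (RCN2) and HSD17B1 by -0.94. In vehicle, replicate 2, they differed by -0.41 (GSKIP) to -1.01 (RCN2) and HSD17B1 by -0.30. Each of the 8 genes therefore fell by more than HSD17B1 in each of the 4 pairs of arrays, although for RNF11 in E2, replicate 1, the values were nearly equal. These pairs are the arrays on which the 8 were chosen for large falls, so the comparison is a description only.

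**Figure D2:**
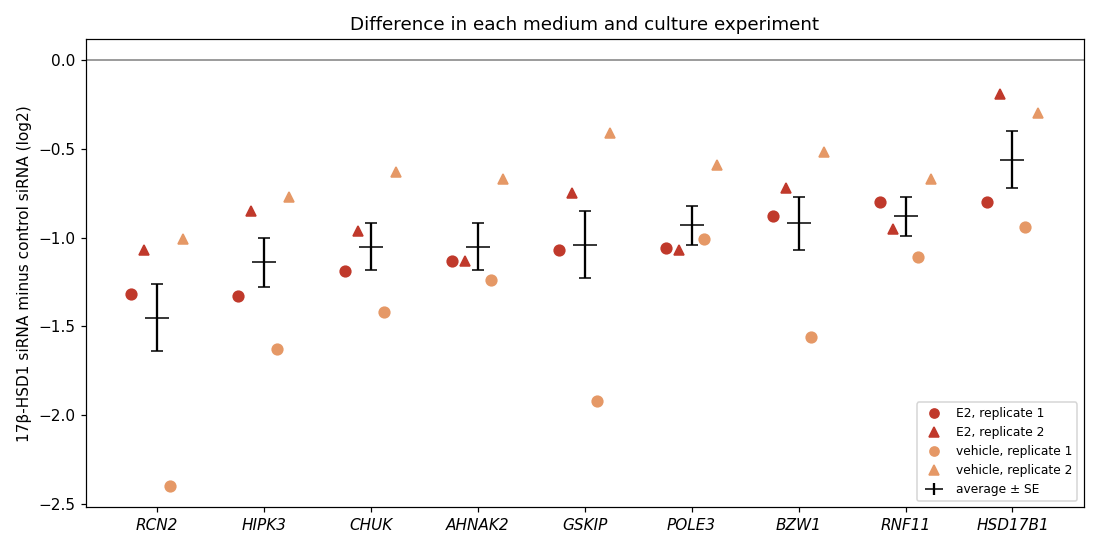
Difference in log2 signal, 17β-HSD1 siRNA minus control siRNA, for each medium and replicate number, with the average and its SE from the limma fit (4 arrays against 4). All 36 points lie below 0, the point farthest from 0 is that of RCN2 in vehicle replicate 1 (-2.40), and HSD17B1 lies nearest to 0 on average.

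None of the relatives and partners of the 8 genes passed the test. Of 100 measured genes in 9 lists built around the known roles of the 8, 0 rose and 0 fell in the averaged knockdown by limma (adjusted over 21214 probe sets, where 0.445% of all genes were called in either direction). At an unadjusted p below 0.05 there were 7 up and 8 down of the 100, and 9.44% of all probe sets passed it in either direction. The median change of the 100 was -0.02, against 0.01 over all genes. In simulated data the same fit called 18% of log2 changes of 0.5 and 83% of changes of 1. The lack of calls therefore does not show that these genes were unchanged.

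RCN2 belongs to the CREC family of calcium-binding proteins. Its relatives RCN1 (0.12 ± 0.11), CALU (0.11 ± 0.13), SDF4 (0.16 ± 0.10) and RCN3 (-0.08 ± 0.11) had changes near 0. Among the kinases related to HIPK3, HIPK1 differed by -0.27 ± 0.10, HIPK2 by 0.53 ± 0.16 and HIPK4 by 0.07 ± 0.13 (adjusted p of 0.396, 0.229 and 0.956). HIPK2 thus leaned the other way without passing. FAS, a death receptor gene in the same list, differed by -0.22 ± 0.13, and the 10 genes of the list had a median of 0.00.

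The other subunit genes of the IκB kinase, which works with CHUK, had IKBKB at 0.03 ± 0.10 and IKBKG at 0.05 ± 0.11. Over the 20 measured genes of that kinase and of the NF-κB factors the changes ran only from -0.11 to 0.21, among them TAB2 (0.21 ± 0.12), REL (0.19 ± 0.12) and NFKBIB (0.14 ± 0.11). Of 16 genes known to be induced by NF-κB, 12 had positive and 4 negative changes, with a median of 0.13, and none passed. How many of all genes had positive changes was not counted. The smallest p values there belonged to CCL20 (0.29 ± 0.12), NFKBIZ (0.34 ± 0.15) and IL6 (0.25 ± 0.11), with adjusted p of 0.435, 0.484 and 0.525. RNF11 acts with TNFAIP3, which encodes A20, and that gene stood at 0.39 ± 0.15 (adjusted p = 0.419). NEDD4 at -0.42 ± 0.15 and WWP2 at 0.28 ± 0.11, both ubiquitin ligase genes, had adjusted p of 0.349 and 0.457.

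AHNAK, the nearest relative of AHNAK2, differed by -0.09 ± 0.10. The 5 genes of that list ran from -0.10 to 0.16, FGF1 being at 0.16 ± 0.12, PRX at 0.15 ± 0.13 and ANXA2 at -0.10 ± 0.13. In the list of glycogen synthase kinase 3 and protein kinase A, which GSKIP joins, GSK3B stood at 0.02 ± 0.11 and GSK3A at -0.02 ± 0.12. Its smallest p values were those of PRKAR1B (-0.29 ± 0.11), a regulatory subunit gene of protein kinase A, DNM1L (0.33 ± 0.14), a mitochondrial fission gene, and PRKAR2B (-0.16 ± 0.11), with adjusted p of 0.382, 0.484 and 0.793.

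For DNA polymerase ε the catalytic subunit gene POLE differed by -0.02 ± 0.10, POLE2 by -0.58 ± 0.12 (adjusted p = 0.086), POLE4, which encodes the histone-fold partner of POLE3 in the polymerase, by -0.23 ± 0.11, and CHRAC1, its partner in a chromatin remodelling complex, by -0.10 ± 0.10. SMARCA5, the motor of that complex, differed by -0.26 ± 0.11. POLE2 stood higher with E2, by 0.91 ± 0.12, where POLE3 differed by 0.40 ± 0.11. The list of translation start factor genes had 14 measured genes, among them ATF4 (-0.06 ± 0.12), which encodes a transcription factor. Of these 14, 13 had negative changes and 0 passed, with a median of -0.17, against 0.01 over all genes. The share of negative changes over all genes was not counted. BZW2, the paralog of BZW1, stood at -0.35 ± 0.23, with knockdown arrays from 9.65 to 10.34 and control arrays from 9.91 to 10.89. EIF2S3 (-0.39 ± 0.11), EIF5 (-0.42 ± 0.17) and EIF1AX (-0.30 ± 0.14) had adjusted p of 0.19, 0.431 and 0.527.

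**Figure D3:**
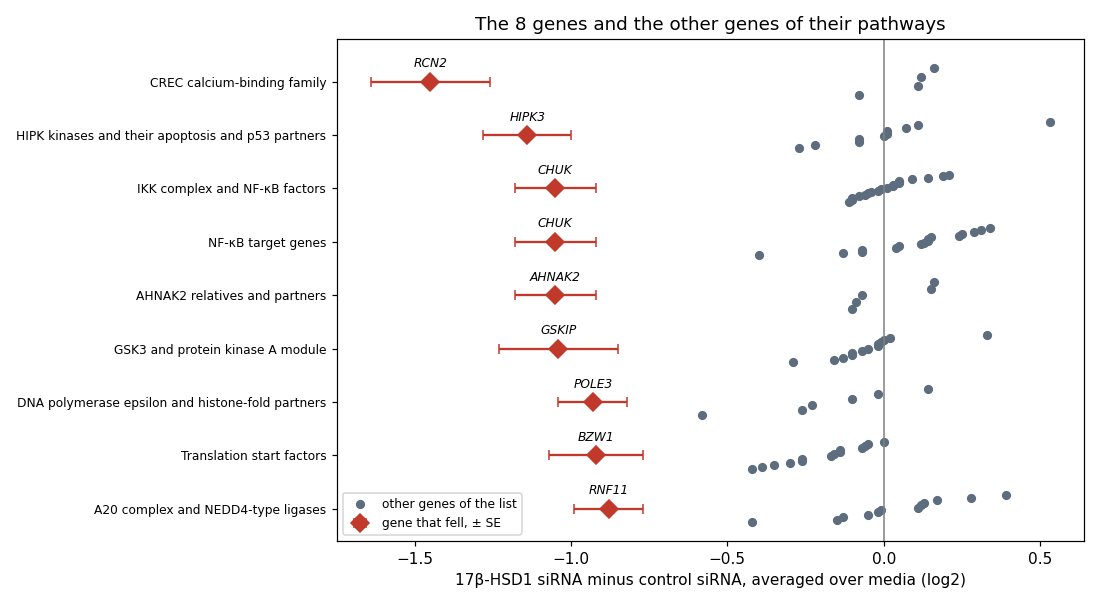
Averaged log2 change, 17β-HSD1 siRNA minus control siRNA, of each of the 8 genes (diamonds with SE) and of the other measured genes in the list built around it (dots). The dots of all 9 lists lie between -0.58 (POLE2) and 0.53 (HIPK2), while the diamonds lie at -0.88 or lower. The 8 genes were chosen for large falls on these arrays, so this gap follows from the choice. Of all 18417 genes, 13 fell by as much as RNF11 or more, RNF11 included.

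The 8 genes varied together over the arrays. Pearson correlations over the 8 arrays between pairs of the 8 genes had a median of 0.934 and ran from 0.766 to 0.987, and these arrays fall into 2 clusters by siRNA, the difference the genes were chosen for. Against the mean of the other 7, CHUK (0.989) and RCN2 (0.984) were closest to the common pattern and POLE3 (0.894) farthest, and HSD17B1 had 0.799 with the mean of all 8. The 10 other genes closest to the mean of the 8 were DYNC1LI2 (0.992), SRXN1 (0.989), EAF1 (0.988), ACBD5 (0.983), NDUFS1 (0.979), PLS1 (0.977), MRPS35 (0.973), AP4E1 (0.972), MTF2 (0.972) and CAPRIN1 (0.972). Their changes were smaller, from -0.73 ± 0.11 for ACBD5 and -0.73 ± 0.13 for PLS1, which were called by limma (adjusted p of 0.0186 and 0.0453), to -0.30 ± 0.10 for CAPRIN1.

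Single genes had these 2 nearest neighbours by the same measure. RCN2 was closest to PLS1 (0.989) and BZW1 (0.987), HIPK3 to DYNC1LI2 (0.989) and EAF1 (0.986), and CHUK to EAF1 (0.998) and HIPK3 (0.986). AHNAK2 was closest to CBX5 (0.987) and BTBD1 (0.983), GSKIP to CSNK1G1 (0.988) and MTF2 (0.984), and POLE3 to XRCC6 (0.977) and SNX30 (0.969). BZW1 was closest to TMTC3 (0.994) and NDUFS1 (0.988), and RNF11 to DYNC1LI2 (0.978) and HIPK3 (0.960). Each correlation is a description over 8 arrays that share siRNAs and media.

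Some interferon-response genes rose with the siRNA. Of 12 measured genes 3 passed, IFI44L (2.77 ± 0.32, adjusted p = 0.0104), IFIT3 (2.14 ± 0.36, adjusted p = 0.0293) and RSAD2 (1.97 ± 0.33, adjusted p = 0.0298), by limma over 4 arrays against 4, where 0.206% of all genes were called higher. The other 9 were higher in value, by 0.61 to 2.08, and did not pass. Leaving out either E2 array of 17β-HSD1 siRNA gave 0, and leaving out either of its vehicle arrays gave 1. Among the control arrays, leaving out E2 replicate 2 gave 12, vehicle replicate 2 gave 5 and vehicle replicate 1 gave 1. The mean signal of the 12 was 10.41 and 10.69 with 17β-HSD1 siRNA in E2 and 9.87 and 10.60 in vehicle, against 8.28 and 9.86 with control siRNA in E2 and 8.42 and 8.94 in vehicle. Replicate 1 had the lower mean in each group, and the knockdown arrays lay above the control arrays by a narrow margin. The part of the interferon-response genes in the falls was not tested.

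**Figure D4:**
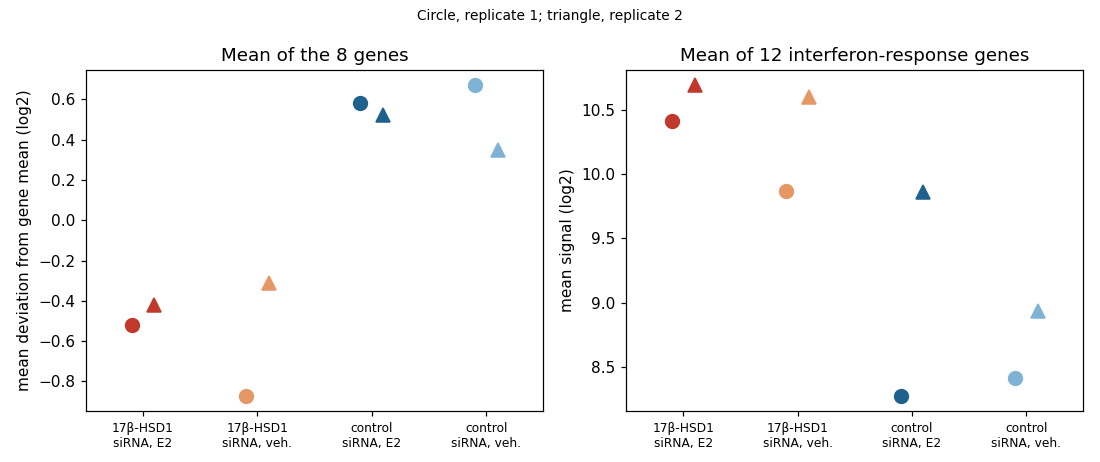
Left, mean deviation of the 8 genes from each gene's mean over the arrays (log2); right, mean log2 signal of 12 interferon-response genes; 1 point per array by group (circles, replicate 1; triangles, replicate 2). The values on the left were used to choose the genes. On the right the knockdown arrays run from 9.87 to 10.69 and the control arrays from 8.28 to 9.86.

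Genes of the small RNA machinery had no called change among 13 measured (0 by limma, 4 at an unadjusted p below 0.05, which 9.44% of all probe sets passed). Some of them, such as DROSHA, DGCR8 and XPO5, serve microRNA precursors rather than transfected siRNAs. The smallest p values were those of PRKRA (-0.39 ± 0.13), XPO5 (-0.38 ± 0.13) and TNRC6C (0.28 ± 0.10), with adjusted p of 0.317, 0.323 and 0.396. AGO2, the slicing Argonaute gene, was next at -0.33 ± 0.14 and was named after its value was seen.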

How the data were processed

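The authors' deposited table holds log2 signals (2.42 to 15.2, the scale read from the values) of 33297 probe sets on 8 arrays; no source used here states the background correction, summarisation or normalization. Array medians lay between 7.25 and 7.37, and values were used without further scaling. Precision is limited by how few arrays there are. Of the probe sets, 19460 had 1 symbol in the platform annotation, 1754 several and 12083 none; symbols were updated through RefSeq gene identifiers (19429 matched). The 21214 with a symbol were tested.

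limma 3.58.1 (R 4.3.3) was fitted with 1 coefficient per group over all 8 arrays (4 residual degrees of freedom), then eBayes, with Benjamini-Hochberg adjustment and a threshold of 0.05. The averaged knockdown sets 4 arrays against 4. The procedure was tested on simulated data. The members, lists and rules were chosen with earlier results of these data known. Of 105 list genes, 100 were measured.

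Named genes are the 8, HSD17B1, their close relatives, list genes past the threshold or else the 3 with the smallest p, neighbours in size of fall, and the most correlated genes.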

Additional observations from a re-analysis of the deposited data

How the results depend on the processing

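Each of the 8 falls kept its direction in every alternative run. For the runs without 1 array this was fixed beforehand, since the knockdown arrays of each gene lay wholly below its control arrays. The median of the 8 averaged changes, -1.04 with all arrays, lay between -1.17 and -0.892 when 1 array was left out. The call behind the choice was less stable than the sizes. Of 97 probe sets called in the averaged knockdown (8 of the 8 genes among them), 0 were called when probe sets without a symbol joined the fit and 0 after leaving out either of the E2 arrays with 17β-HSD1 siRNA, so none of the 8 was called there. The count was 29 without control siRNA, vehicle replicate 1 (6 of the 8 genes), 70 after leaving out the array that stood apart (6 of the 8, GSKIP and BZW1 at adjusted p of 0.0963 and 0.0528) and up to 186 without 17β-HSD1 siRNA, vehicle replicate 2. With the replicate block 285 were called (154 up, 131 down), including all 8. A further quantile normalization and a trended robust spread model each left 7 of the 8 called, without GSKIP (adjusted p of 0.088 and 0.0656).

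In a single medium, where 0 were called, the replicate block called 37 in vehicle and 45 in E2, fits on the 4 arrays compared called 63 and 1, and leaving out 1 array gave 0 to 30 and 0 to 65 (30 without either control siRNA, E2 array, 65 without its replicate 2). Partner genes were called only under the block, where the 1 was POLE2 (-0.58 ± 0.12, adjusted p = 0.0424), and 0 without any 1 array. Of 12 interferon-response genes all 12 rose with the block, against 3 without it, 0 with all deposited probe sets or the trended model and 2 after quantile normalization. The block also called EAF1, NDUFS1 and AP4E1 lower (adjusted p of 0.0322, 0.0296 and 0.0335), and called 123 genes lower, against 44 without it, 81 of them also called with E2. No call changed among the markers, the small RNA genes or the E2 results of named genes. No label ties a replicate number to 1 experiment across groups. Deviations of same-numbered arrays correlated at 0.31 to 0.44 for 4 pairs of groups, and for control siRNA, vehicle at 0.01 with 17β-HSD1 siRNA, E2 and -0.20 with 17β-HSD1 siRNA, vehicle. Causes were not tested.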
